A study of Mus musculus with 8 samples.

Results

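The transcripts of 41 genes of DNA replication and S phase were followed in freshly sorted muscle stem cells. The 41 were chosen by name as known parts of the replication machinery and its supply, and all 41 were found once, by symbol, among the 57180 genes of the deposited count table. RNA sequencing covered 8 libraries, 4 from control mice labelled WT (numbered 2, 5, 7 and 8 in their titles) and 4 labelled RhoA het in their titles and RhoA knockdown as genotype (numbered 5, 6, 7 and 8). The RhoA het mice carried 1 floxed allele of RhoA, a GTPase that acts on the actin cytoskeleton, targeted in the stem cells, and the stated question was what reduced RhoA activity does to expression and splicing. The driver of recombination, the age of the mice and what the library numbers stand for were not given in the sources used here. No label says that the libraries came from separate animals, so p-values measure only the spread between these samples.

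DNA replication starts when the origin recognition complex, Cdc6 and Cdt1 load the MCM helicase onto DNA in G1. Cdc45 and the GINS complex then turn the helicase on in S phase, and polymerases held on DNA by the sliding clamp PCNA copy both strands. Many of these genes are targets of E2F transcription factors, which are held back by retinoblastoma-family proteins in resting cells. Adult muscle stem cells in uninjured muscle are mostly quiescent, and entry into S phase is a late step of their activation.

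Total assigned fragments per library were between 19138763 and 25606342, and the 41 genes together took 0.0714% to 0.103% of them. Markers of muscle stem cells were present in every library, with a summed level of 7562 to 13331 TPM over 10 genes (TPM, a level corrected for gene length and depth). Rhoa itself spanned 272.6 to 382.9 CPM in control and 252.5 to 282.1 CPM in RhoA het (CPM, fragment counts scaled for depth with TMM), with overlapping groups. Its log2 fold change was -0.29 (SE 0.13, edgeR unadjusted p 0.0495, adjusted p 1). Within numbers 5, 7 and 8, Rhoa was lower in RhoA het in all 3 pairs (309.2 and 252.5, 272.6 and 253.2, 333.6 and 282.1 CPM in control and RhoA het). RhoA het 6 stood apart in endothelial markers, at a summed 460.5 TPM against 42.3 to 121.8 TPM elsewhere. Control 2 and RhoA het 6 carried 14358 and 14659 fragments on 4 Y-linked genes, and each of the other 6 libraries carried at most 2.

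Most of the replication genes stood higher in the libraries numbered 5 than in the others. In both libraries numbered 5, 1 of each genotype, 23 of the 41 genes were above every one of the other 6 libraries, against 11.3% of all 15660 genes tested. The ratio of the mean of the libraries numbered 5 to the mean of the others had a median of 0.76 on the log2 scale over the 41 genes, or 1.69-fold, against -0.03 over all genes tested. None of the 41 genes was called different between RhoA het and control. The contrast of the libraries numbered 5 with the rest was singled out with earlier results of these data known, so it is given as a description. In these bulk libraries, more cells with a transcript and more of it per cell cannot be told apart.

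**Figure D1:**
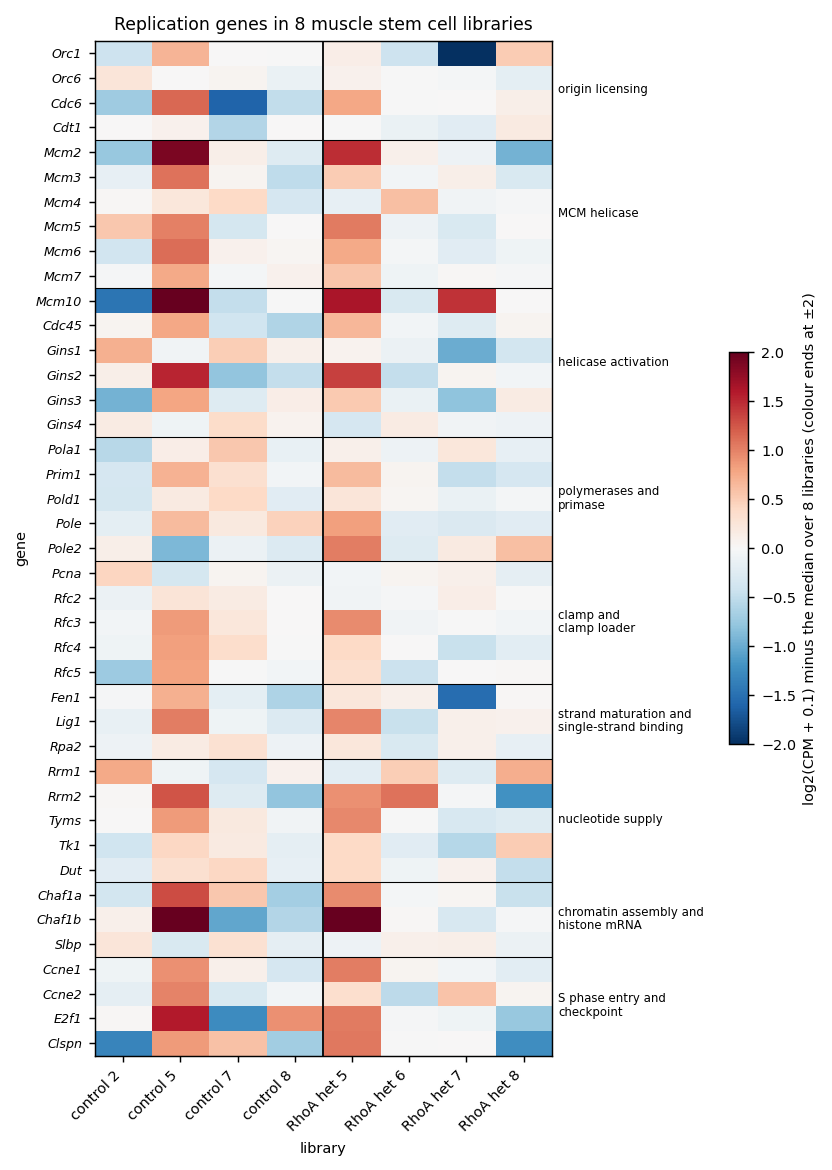
Heat map of the 41 replication genes (rows, grouped by role) in the 8 libraries (columns, control left of the line). Colour is log2(CPM + 0.1) minus the gene's median over the 8 libraries, and colours end at ±2; the columns of control 5 and RhoA het 5 hold the red cells of most genes, with Slbp, Pcna, Orc6 and Gins4 pale across.

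By level, the 41 genes spanned from Mcm10 at 0.557 TPM to Slbp at 118.4 TPM (means over 8 libraries). Slbp, the protein that binds the stem-loop of histone mRNAs, ranged from 98.5 to 149.7 TPM and Pcna, the sliding clamp, from 101.2 to 130.2 TPM. Their ranges overlapped, so these neighbours at the top of the order were not separated beyond their spread. The next genes, Orc6 at 41.9 to 55.4 TPM and Mcm4 at 28.5 to 54.7 TPM, overlapped each other and lay below both in every library. The 10 genes with the highest mean took 73% of the summed TPM of the 41. At the low end, Mcm10, Pole, Chaf1a, Fen1 and E2f1 had means under that of Orc1, 1.13 TPM. Their counts were small, for example 4 to 26 fragments for Fen1 and 3 to 82 for Mcm10.

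Of the 10 most abundant genes, 2 (Mcm6 and Mcm7) were above all other libraries in both libraries numbered 5. Among the remaining 31 genes it was 21. The median log2 ratio was -0.01 for the 10 and 0.89 for the 31. The plot of this ratio against level shows both ends.

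**Figure D2:**
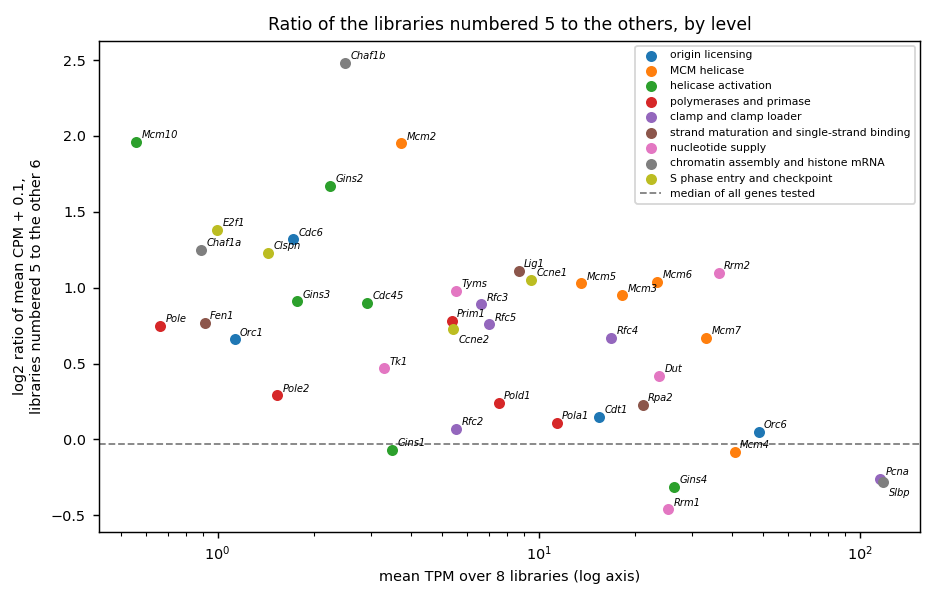
Each point is 1 of the 41 genes, with its mean TPM over 8 libraries (x, log axis) and the log2 ratio of mean CPM + 0.1 in the 2 libraries numbered 5 to the other 6 (y); colour marks the role and the dashed line the median of all genes tested, -0.03. Chaf1b lies highest at 2.48 and Rrm1 lowest at -0.46, and the abundant Pcna and Slbp lie below the line.

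Summed over the 41 genes, the level was 874.8 TPM in control 5 and 813.8 TPM in RhoA het 5. The other control libraries had 564.8, 722.2 and 545.7 TPM (numbers 2, 7 and 8), and the other RhoA het libraries 660.7, 655.3 and 603.2 TPM (numbers 6, 7 and 8). Both libraries numbered 5 thus lay above the rest, at 1.35 times the mean of the other 6, whose SD was 66.4 TPM. For 21 genes the highest of the 8 libraries was control 5, and for 7 it was RhoA het 5. Control 7 was highest for 6 genes, control 2 for 4, RhoA het 8 for 2 and RhoA het 6 for 1.

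**Figure D3:**
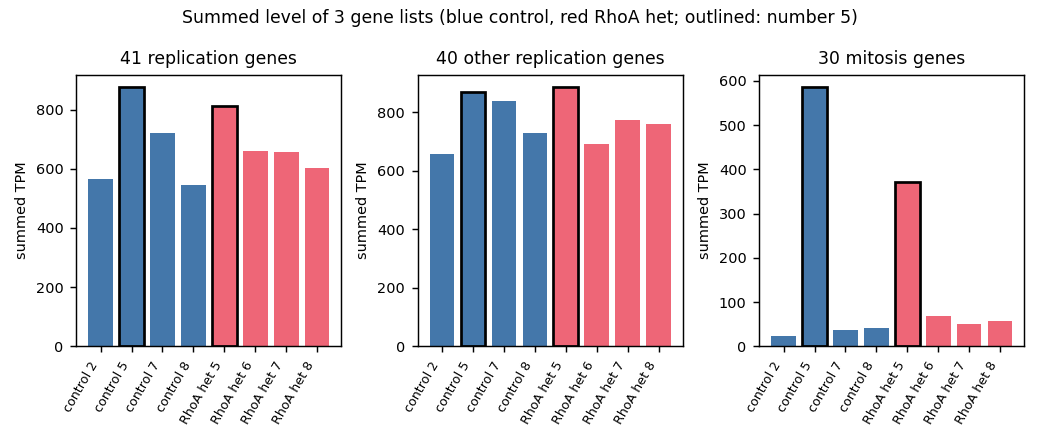
Bars give the summed TPM of 3 gene lists in each library (blue control, red RhoA het, outlined the libraries numbered 5), on axes that start at 0. The 41 replication genes stand at 874.8 and 813.8 TPM in the libraries numbered 5 and at 545.7 to 722.2 TPM elsewhere, while 30 mitosis genes stand at 584.9 and 371 TPM against 24.2 to 68.9 TPM.

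With a stricter requirement, both libraries numbered 5 at least 2-fold above all others, 3 of 41 genes remained (Chaf1b, Mcm2 and Gins2), against 0.907% of all genes tested. At 1.5-fold it was 10 of 41, against 1.62%, which added Lig1, Ccne1, Mcm6, Cdc6, Tyms, Rfc3 and Cdc45. None of the 41 was below all other libraries in both, where 10.6% of all genes were. By group means, 35 of 41 genes were higher in the libraries numbered 5, against 47% of all genes, and 13 were at least 2-fold higher, against 2.49%. Scaling matters for the genes near a ratio of 1. In the deposited TPM the median of all genes shifted by 0.18 on the log2 scale, and 37 of 41 genes were higher, against 63.6% of all genes; Mcm4 and Gins1 changed sign there, from -0.08 to 0.10 and from -0.07 to 0.13. Without control 2 and RhoA het 6, the libraries with Y-linked fragments, 24 of 41 genes were above the other 4 libraries in both, against 14.6% of all genes.

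Promoters are shown because the 41 genes were not chosen by sequence, and E2F motifs were found in a larger share of their windows than of all windows. RefSeq promoter windows of 300 bases (250 before to 50 after a gene's start, GRCm38.p6) were at hand for 34 of the 41 genes. E2F motifs were searched on both strands, namely TTCCCGC along with TTGGCGC as well as TTCGCGC and also TTGCCGC. At least 1 was found in 24 of the 38 windows of these genes (63.2%), covering 22 genes, against 9.57% of all 32851 windows. Those windows were also richer in G and C, with a median of 59% against 52.7%. Printed below are the 4 genes with the largest ratio among those that held a motif, which leaves out Mcm10, Mcm2 and E2f1, with no match, and Gins2, which has no window. The sequences are given 5′ to 3′ on each gene's own strand, with motif matches in capitals. They are Chaf1b at chr16:93883651-93883950, Cdc6 at chr11:98907901-98908200, Chaf1a at chr17:56040166-56040465 and Clspn at chr4:126556730-126557029, all on the plus strand.
Chaf1b: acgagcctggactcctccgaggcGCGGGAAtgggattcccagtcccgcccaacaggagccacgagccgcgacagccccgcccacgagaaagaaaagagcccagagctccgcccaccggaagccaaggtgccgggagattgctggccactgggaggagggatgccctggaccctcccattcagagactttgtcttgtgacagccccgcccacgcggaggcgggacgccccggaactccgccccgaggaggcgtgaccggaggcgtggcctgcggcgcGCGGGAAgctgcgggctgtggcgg
Cdc6: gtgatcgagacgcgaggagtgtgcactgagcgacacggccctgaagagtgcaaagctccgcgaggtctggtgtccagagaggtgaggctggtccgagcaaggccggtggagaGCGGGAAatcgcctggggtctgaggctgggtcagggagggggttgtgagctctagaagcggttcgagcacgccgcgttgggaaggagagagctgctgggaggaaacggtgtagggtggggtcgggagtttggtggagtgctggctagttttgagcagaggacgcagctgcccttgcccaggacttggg
Chaf1a: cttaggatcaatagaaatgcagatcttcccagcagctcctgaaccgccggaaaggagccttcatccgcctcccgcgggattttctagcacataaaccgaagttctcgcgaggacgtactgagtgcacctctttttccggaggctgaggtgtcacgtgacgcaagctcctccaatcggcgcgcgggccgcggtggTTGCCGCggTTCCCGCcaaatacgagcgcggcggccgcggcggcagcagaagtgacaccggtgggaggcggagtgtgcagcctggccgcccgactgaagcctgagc
Clspn: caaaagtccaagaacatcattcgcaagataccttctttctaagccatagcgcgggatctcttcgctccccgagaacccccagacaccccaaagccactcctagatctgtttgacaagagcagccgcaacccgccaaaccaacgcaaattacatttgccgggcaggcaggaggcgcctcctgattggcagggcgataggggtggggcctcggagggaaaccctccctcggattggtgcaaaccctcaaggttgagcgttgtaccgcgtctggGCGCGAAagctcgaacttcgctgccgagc

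The Chaf1b window held 2 matches, 1 of them in the 50 bases after the start, and the Chaf1a window 2 close together. The Cdc6 and Clspn windows held 1 each, that of Clspn also after the start. Holding a motif did not go with a larger ratio among these genes. The median log2 ratio was 0.84 for the 22 genes with a match and 0.83 for the 12 with a window and no match, Mcm2 and Mcm10 among the latter. CCAAT occurred in 21 of 38 windows (55.3%, all windows 37.4%) and TTTGAA in 4 (10.5%, all windows 17.9%). A match is a string of letters and not a known site, and these windows miss starts that the table does not list.

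Of the 4 origin licensing genes, Orc6 varied least relative to its level, Cdt1 ran from 10.5 to 17.8 CPM, and Cdc6 and Orc1 varied more. Orc6, a subunit of the origin recognition complex, was at 43.9, 37.5, 38.7 and 33.9 CPM in control 2, 5, 7 and 8, and at 39.3, 36.9, 36.1 and 32.5 CPM in RhoA het 5, 6, 7 and 8. The libraries numbered 5 lay inside the range of the others. Cdt1, the MCM loading partner of Cdc6, was at 15.8, 16.7, 10.5 and 15.9 CPM in control and at 15.7, 14.3, 13.5 and 17.8 CPM in RhoA het, again with the libraries numbered 5 inside. Cdc6 was at 1.48, 5.67, 0.75 and 1.74 CPM in control and at 4.32, 2.47, 2.51 and 2.72 CPM in RhoA het. Both libraries numbered 5 were highest for Cdc6, 2.49-fold above the mean of the others. Orc1, the largest subunit of the origin recognition complex, ran from 0.179 CPM in RhoA het 7 to 2.04 CPM in control 5, on 4 to 44 fragments per library, with its highest value in control 5 and RhoA het 8 above RhoA het 5.

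The MCM helicase is a ring of 6 different subunits, and their transcripts were unequal. Mean levels ran from Mcm4 at 40.8 TPM through Mcm7 at 33.3, Mcm6 at 23.4, Mcm3 at 18.2 and Mcm5 at 13.6 TPM down to Mcm2 at 3.74 TPM. Mcm2 (mm39 chromosome 6, 88860456 to 88875762, minus strand) was at 3.12, 20.1, 5.81 and 4.46 CPM in control 2, 5, 7 and 8. In RhoA het 5, 6, 7 and 8 it was at 15, 5.75, 4.98 and 2.72 CPM. The libraries numbered 5 were 2.59-fold or more above every other library for Mcm2, and the 6 others lay within 2.72 to 5.81 CPM. Mcm4 showed no such split, with 42.6, 49.5, 55.3 and 33.5 CPM in control and 37.6, 63.8, 39.9 and 41.6 CPM in RhoA het. Its highest value was in RhoA het 6, the library with the most endothelial transcripts, and the part of that library's other cells in it was not tested. Mcm7 was at 39, 67.2, 38.7 and 41.9 CPM in control and at 58.1, 37.3, 40.3 and 38.8 CPM in RhoA het. Outside number 5 its 6 values stayed within 37.3 to 41.9 CPM, the tightest spread of any MCM gene relative to its mean. Mcm7 shares exonic sequence with 4 annotated genes, 2 on each strand, and the counts ignore strand. Mcm3, Mcm5 and Mcm6 were above all others in both libraries numbered 5 as well, with mean ratios of 1.93-fold, 2.05-fold and 2.06-fold. With these unequal ratios the subunits lay closer together in the libraries numbered 5. Mcm4 stood at 4.81 times the TPM of Mcm2 there and at 19.9 times in the other 6 libraries, and Mcm7 at 5.6 and 13.7 times.

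Genes of helicase activation split in the same way. Gins2, 1 of the 4 GINS subunits (mm39 chromosome 8, 121305372 to 121316043, minus strand), was at 2.27, 6.13, 1.16 and 1.46 CPM in control and at 5.49, 1.47, 2.15 and 2.00 CPM in RhoA het. Both libraries numbered 5 were at least 2.42-fold above all others, from 117 and 132 fragments. Gins4, the most abundant subunit at a mean of 26.5 TPM, was at 12.2, 10.3, 14.1 and 11.5 CPM in control and at 8.69, 12.2, 10.4 and 10.2 CPM in RhoA het. It was among the genes with the lowest ratios, at -0.31 on the log2 scale. Gins1 was at 2.69, 1.53, 2.29 and 1.74 CPM in control and at 1.69, 1.47, 0.762 and 1.23 CPM in RhoA het, with the libraries numbered 5 in the middle. Gins3 was highest in both libraries numbered 5, at 1.88-fold the mean of the others, on 13 to 54 fragments per library. The TPM of Gins4 was 4.95 times that of Gins2 in the libraries numbered 5 and 20.5 times in the others. Mcm10, a factor that helps to switch on the helicase, was at 0.158, 3.81, 0.412 and 0.611 CPM in control and at 2.11, 0.475, 1.84 and 0.617 CPM in RhoA het. RhoA het 7 came close to RhoA het 5 for Mcm10, with 41 and 45 fragments. Cdc45, which joins MCM and GINS in the active helicase, was 1.87-fold higher in the libraries numbered 5, with both above all others.

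The polymerase genes differed less. Pola1, the catalytic subunit of polymerase alpha, was at 20.4, 33, 43.9 and 27.2 CPM in control and at 32.2, 28.1, 35.1 and 26.8 CPM in RhoA het. Pold1, the catalytic subunit of polymerase delta, was at 8.56, 12.4, 14.5 and 9.39 CPM in control and at 13, 11.2, 10 and 10.7 CPM in RhoA het. For both genes control 7 exceeded the libraries numbered 5. Prim1, the catalytic primase subunit, and Pole, the catalytic subunit of polymerase epsilon, were above all others in both libraries numbered 5, at 1.72-fold and 1.68-fold the mean. Pole2, the second subunit of polymerase epsilon, was the gene on which the libraries numbered 5 disagreed most. It had 13 fragments (0.604 CPM) in control 5, the lowest of all, and 55 (2.58 CPM) in RhoA het 5, the highest.

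The clamp and its loader went different ways. Pcna was at 116.7, 67.9, 90.3 and 80.0 CPM in control 2, 5, 7 and 8, and at 84.2, 90.0, 93.9 and 77.2 CPM in RhoA het 5, 6, 7 and 8. Control 5 held the lowest Pcna value of the 8 libraries, and RhoA het 5 lay inside the range of the rest. Pcna has 2 named pseudogenes in the annotation and 1 overlapping gene on the opposite strand, so part of its reads may be assigned elsewhere. Rfc4, a small subunit of the clamp loader, was at 6.71, 12.6, 9.07 and 7.05 CPM in control and at 9.34, 7.13, 5.16 and 6.12 CPM in RhoA het, where RhoA het 5 was only just above control 7. Rfc3 and Rfc5 were above all others in both libraries numbered 5, at 1.85-fold and 1.69-fold, and Rfc2 was at 1.05-fold.

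Of the genes that finish the lagging strand, Lig1, the replicative DNA ligase, was at 8.45, 19, 8.77 and 7.66 CPM in control and at 18.5, 6.80, 10 and 9.92 CPM in RhoA het. Both libraries numbered 5 were at least 1.85-fold above every other. Fen1, the flap endonuclease, was also highest in both, on few fragments. Rpa2, a subunit of the single-strand binding protein RPA, was at 17.8, 21.4, 23.7 and 17.9 CPM in control and at 22.4, 15.5, 20.4 and 17.0 CPM in RhoA het, a ratio of 1.17-fold with control 7 the highest.

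Nucleotide supply showed opposite patterns for the 2 subunits of ribonucleotide reductase. The large subunit gene Rrm1 was at 128.6, 71.5, 60.6 and 81.4 CPM in control and at 66.2, 107.2, 63.6 and 126.1 CPM in RhoA het. High values were in control 2, RhoA het 6 and RhoA het 8, and the libraries numbered 5 were in the lower part. The small subunit gene Rrm2 was at 24.4, 57.8, 20.0 and 13.8 CPM in control and at 45.3, 51.3, 23.7 and 10.3 CPM in RhoA het. Control 5 was highest for Rrm2, and RhoA het 6, with its endothelial transcripts, lay above RhoA het 5. In TPM, Rrm1 stood at 0.336 times Rrm2 in the libraries numbered 5 and at 0.99 times in the others. Tyms, thymidylate synthase, was above all others in both libraries numbered 5 at 1.97-fold, and 1 pseudogene of it is annotated. Tk1, thymidine kinase, and Dut, which breaks down dUTP, had ratios of 1.39-fold and 1.33-fold, with the highest values in RhoA het 8 and control 7.

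Chaf1b had the largest ratio of all 41 genes. It encodes a subunit of the CAF-1 complex, which places histones on newly copied DNA (mm39 chromosome 16, 93680789 to 93703003, plus strand), and its promoter is the first of those printed above. It was at 2.01, 9.20, 0.862 and 1.22 CPM in control 2, 5, 7 and 8, and at 9.11, 1.90, 1.48 and 1.85 CPM in RhoA het 5, 6, 7 and 8. The libraries numbered 5 held 198 and 194 fragments and the others 23 to 40, a ratio of 5.60-fold with no overlap. Its partner Chaf1a was 2.37-fold higher, with both libraries numbered 5 above all others. Slbp was at 263.4, 180.0, 272.7 and 196.0 CPM in control and at 207.1, 237.1, 239.1 and 203.9 CPM in RhoA het. Control 5 was lowest for Slbp and control 7 highest.

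Among genes that govern S phase entry, Ccne1, a cyclin E gene, was at 6.02, 12.1, 6.82 and 5.03 CPM in control and at 13.1, 6.61, 6.14 and 5.5 CPM in RhoA het. Both libraries numbered 5 exceeded the others by at least 1.77-fold. The other cyclin E gene, Ccne2, was at 4.44, 10.1, 4.08 and 4.84 CPM in control and at 6.39, 3.47, 7.49 and 5.24 CPM in RhoA het, where RhoA het 7 exceeded RhoA het 5. E2f1 was at 0.687, 2.23, 0.225 and 1.36 CPM in control and at 1.5, 0.666, 0.628 and 0.36 CPM in RhoA het, from 6 to 48 fragments. Control 8 came close to RhoA het 5 for E2f1. Clspn, the claspin adaptor of the replication checkpoint, was 2.35-fold higher in the libraries numbered 5, with control 7 next to them at 4.27 CPM.

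By role, the genes of S phase entry and checkpoint had a median log2 ratio of 1.14 (4 genes), chromatin assembly 1.25 (3 genes), the MCM helicase 0.99 (6 genes) and helicase activation 0.90 (6 genes). The medians were 0.77 for strand maturation (3 genes), 0.67 for the clamp and its loader (5 genes), 0.47 for nucleotide supply (5 genes), 0.40 for origin licensing (4 genes) and 0.29 for polymerases (5 genes). Each role but S phase entry, licensing, the polymerases and strand maturation held at least 1 gene with a ratio below 0.

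Other genes of the replication pathway were set beside these from a separate list of 40, of which 37 were tested. In both libraries numbered 5, 13 of the 37 were above all others and 4 at least 2-fold so, with a median log2 ratio of 0.24. Over all genes tested these shares were 11.3% and 0.907%. Uhrf1, which guides maintenance DNA methylation behind the fork, was at 18 and 12.7 CPM in control 5 and RhoA het 5 and at 1.06 to 3.99 CPM elsewhere. Asf1b, a histone chaperone, was at 11.6 and 9.25 CPM against 1.69 to 2.72 CPM. Genes of mitosis differed far more than the replication genes: all 30 of that list were above all others in both libraries numbered 5, 27 of them at least 2-fold, with a median log2 ratio of 3.59. Mki67, the proliferation marker, was at 57.6 and 37.6 CPM in control 5 and RhoA het 5 and at 0.370 to 3.80 CPM elsewhere. Of 13 tested genes of the E2F and retinoblastoma families and their partners, 9 were above all others, with E2f8 at 3.44 and 2.07 CPM against at most 1.05 CPM. Ccnd1, the main D-type cyclin, was at 340 and 330.5 CPM in the libraries numbered 5 and at 129.5 to 179.8 CPM elsewhere. Cdkn1c, an inhibitor of cyclin-dependent kinases, was also highest in both, at 26.1 and 24.1 CPM against 7.23 to 18.9 CPM.

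Some other gene lists also differed in the libraries numbered 5, and their part in the replication values was not tested. The summed level of 19 genes of the dissociation response was 30584 and 27189 TPM in control 5 and RhoA het 5 and 38228 to 56997 TPM in the others, with 12 of 19 genes below all others in both. Genes of myogenic differentiation included Myog, at 51.7 and 40.2 CPM against 3.06 to 9.75 CPM, with 3 of 8 tested genes above all others. Muscle stem cell markers had a median log2 ratio of -0.08, and 2 of 10 were above all others. Fibro-adipogenic markers summed to 5656 and 4924 TPM against 1685 to 2928 TPM, carried by Col1a1 and Col3a1, while the median log2 ratio of the 10 genes was -0.90. Myofibre markers summed to 554.5 and 283.7 TPM against 111.1 to 425.4 TPM, with 1 of 10 genes above all others, 6 at least 2-fold higher by group means and a median log2 ratio of 1.07. Endothelial markers lay inside the range of the others (100 and 90.3 TPM against 42.3 to 460.5 TPM), and erythroid markers were low (8.68 and 12.1 TPM, others 26.9 to 1285 TPM). The median log2 ratio of the 10 endothelial genes was -1.14, where the mean of the others included RhoA het 6. Immune markers summed to 330.2 and 461.5 TPM against 232 to 825.9 TPM, with Itgam and Cd3e at 0 fragments in both. Mural markers at 1369 and 995.3 TPM and Schwann markers at 300.6 and 364.7 TPM lay inside the range of the other libraries. The median log2 ratio was -0.94 for the mural genes, with 3 of 8 at least 2-fold lower by group means, and -0.11 for the Schwann genes. For the CDK inhibitor and G1 cyclin lists, 2 of 7 and 4 of 8 genes were above all others. Over all genes tested, 11.3% were above all others in both libraries numbered 5 and 10.6% were below.

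The comparison the study was designed for, RhoA het against control, showed no replication gene past the threshold. All 41 passed the filter on low counts, and 0 of 41 were called at a Benjamini-Hochberg adjusted p under 0.05 in edgeR's quasi-likelihood test over all 15660 genes, against a background of 0% of all genes. At an unadjusted p under 0.05 it was again 0 of 41, against 2.38% of all genes, and DESeq2 and limma on log2(TPM + 1) also gave 0 (DESeq2 tested 40 of the 41). In none of the 41 did the 4 libraries of a group lie wholly above the 4 of the other, against 1.81% of all genes. Log2 fold changes ran from -0.68 to 0.77 with SEs of 0.12 to 0.87, and their median was -0.05, beside 0 over all genes. In edgeR 26 genes were lower and 15 higher in RhoA het, and with total counts in place of TMM it was 23 lower and 18 higher. With limma on log2(TPM + 1), which changes the test, the scale and the pseudocount together, 17 were lower and 24 higher. The split also turned with the libraries numbered 5. Without control 5, 28 of 41 genes were higher and the median was 0.14, and without RhoA het 5, 36 of 41 were lower and the median was -0.29. Without both, the median was -0.04.

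**Figure D4:**
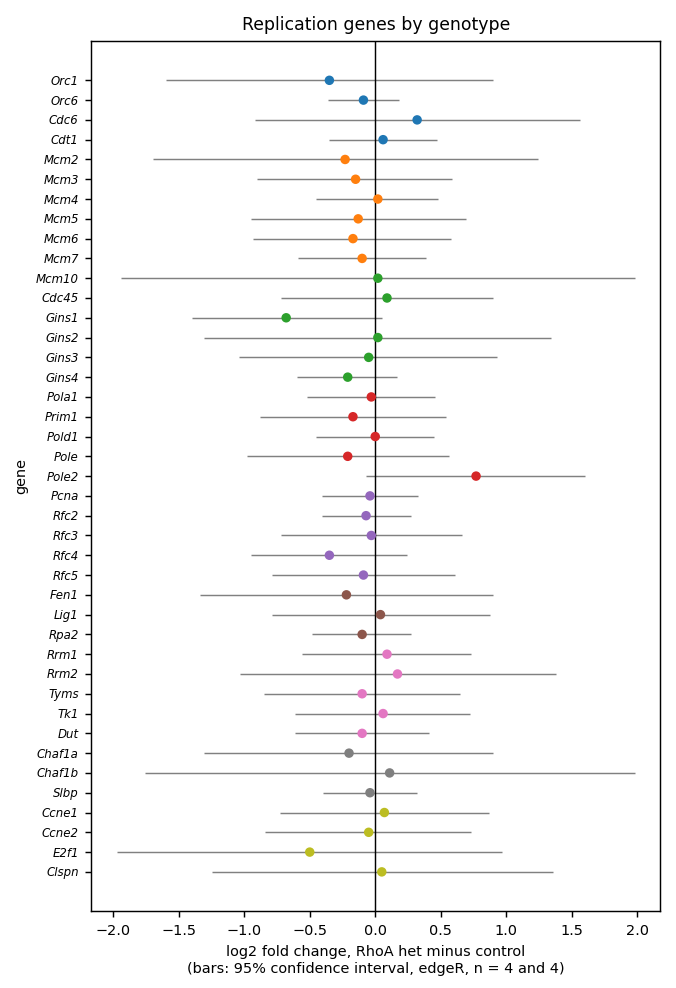
Points give the log2 fold change of each of the 41 genes, RhoA het minus control (edgeR, 4 libraries each), and bars its 95% confidence interval; colours separate the roles, in the order of the heat map. All 41 intervals include 0, and the widest belong to genes that were high in the libraries numbered 5, such as Mcm10 and Chaf1b.

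The precision differed widely between genes. For Orc6 the interval of the log2 fold change was -0.36 to 0.18 and for Slbp -0.40 to 0.32. Other abundant genes had wider intervals, such as -1.03 to 1.38 for Rrm2 and -0.93 to 0.58 for Mcm6. For Mcm2 it was -1.70 to 1.24 and for Chaf1b -1.76 to 1.98, since each group held 1 high library. For Mcm2 the control mean was 8.36 ± 7.88 CPM and the RhoA het mean 7.12 ± 5.42 CPM (SD, n = 4 in each group). The 2 genes with the smallest p were Gins1 and Pole2, named after their values were seen. Gins1 had means of 2.06 ± 0.527 CPM (control) and 1.29 ± 0.398 CPM (RhoA het), or a log2 fold change of -0.68 (SE 0.32, edgeR unadjusted p 0.0647, adjusted p 1, two-sided exact permutation p 0.0571). Pole2 had means of 1.01 ± 0.303 CPM (control) and 1.72 ± 0.685 CPM (RhoA het), or a log2 fold change of 0.77 (SE 0.37, edgeR unadjusted p 0.0686, adjusted p 1, exact permutation p 0.114). The smallest p that 4 against 4 libraries allow in that permutation test is 0.0286. Both genes rest on few fragments, 17 to 61 per library for Gins1 and 13 to 55 for Pole2.

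Numbers 5, 7 and 8 occur in both groups, and the deviations of same-numbered libraries correlated positively across the genes tested. Differently numbered libraries were not compared in this way, so pairing by number was assumed. When these 3 pairs were fitted with a replicate block, 0 of 41 genes were called (background 0.0127%, 2 of 15714 genes; lowest adjusted p among the 41 genes 0.892 in edgeR). At an unadjusted p under 0.05 there were 4 of 41, against 5.26% of all genes: Mcm2 (-0.46), Mcm6 (-0.29) and Rfc4 (-0.51) were lower and Pole2 (1.06) higher in RhoA het, as log2 fold changes. Within the number 5 pair, 26 of 41 genes were lower in RhoA het 5 than in control 5, with a median log2 difference of -0.11, where 52.1% of all genes were lower. Number 7 gave 24 of 41 lower (median -0.19, all genes 51.3%) and number 8 gave 19 of 41 lower (median 0.01, all genes 46.2%). The higher level in the libraries numbered 5 was thus present in both genotypes. The median differences inside the pairs were small beside the median ratio of 0.76, but genes that go opposite ways cancel in such medians. Single genes differed more, such as Orc1 (-2.26 in number 7) and Pole2 (1.93 in number 5).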

How the data were processed

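RNA of sorted muscle stem cells was sequenced from 8 mouse libraries, grouped by title into 4 control and 4 RhoA het. The deposited counts are fragments per gene that the authors made with featureCounts 1.6.4 (per the file headers), paired-end, over exons of GENCODE mouse release 34 on mm39, from STAR alignments. The command sets no strand, multi-mapping or multi-overlap option, so shared or overlapping sequence can lose or misassign fragments: 16 of the 41 genes overlap exons of a gene on the opposite strand and 2 of a gene on the same strand. The deposited TPM equal counts per gene length scaled per library, within 4.97e-15 when recomputed. Symbols matched 51884 of 57180 identifiers.

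Genes were filtered with filterByExpr (15660 kept) and tested on TMM-scaled counts with edgeR's quasi-likelihood test (edgeR 4.0.16, limma 3.58.1, DESeq2 1.42.0, R 4.3.3), Benjamini-Hochberg adjusted over all genes tested. Totals of 19138763 to 25606342 fragments limit genes under about 1 CPM. Same-numbered deviations from the group means correlated at 0.546, 0.232 and 0.49 for numbers 5, 7 and 8 across genes. Differently numbered libraries were not compared in this way, so these values do not show that the numbers pair the libraries. Pairing by number was assumed, and the block fit is given where it changes a count. The ratio of the libraries numbered 5 to the others used means of CPM + 0.1.

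The 41 genes, the other lists and the contrast with number 5 were chosen with earlier results of these data known. Values in every library were given for the 2 most abundant genes of each role, the 6 largest and 4 smallest ratios, and genes that separate the groups or have an unadjusted p under 0.05 (none). Up to 3 genes of each other list could be named. Others were named after their values were seen. Alternatives covered scaling, filter, test, block, pseudocount, fold and leaving out libraries.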

Additional observations from a re-analysis of the deposited data

Results flagged for a closer look

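Within each group of 4 libraries, 1 library stood apart from the other 3 (Dixon's ratio above its 95% critical value) in 13 of 48 checks over 23 genes with values in every library and the summed TPM. Chance alone marks about 1 in 20 such groups, but the count cannot be read against that share. The 23 genes include the 6 with the largest ratio of the libraries numbered 5 to the others, and genes are not independent of each other. These values are a description, and 11 of the 13 were a library numbered 5. In control 5 these were Mcm2 at 20.1 CPM (others 3.12 to 5.81), Mcm7 at 67.2 (38.7 to 41.9), Mcm10 at 3.81 (0.158 to 0.611), Lig1 at 19 (7.66 to 8.77), Chaf1b at 9.2 (0.862 to 2.01) and Ccne2 at 10.1 CPM (4.08 to 4.84). In RhoA het 5 they were Cdc6 at 4.32 CPM (others 2.47 to 2.72), Mcm7 at 58.1 (37.3 to 40.3), Gins2 at 5.49 (1.47 to 2.15), Chaf1b at 9.11 (1.48 to 1.9) and Ccne1 at 13.1 CPM (5.5 to 6.61). The remaining 2 were Cdt1, low in control 7 at 10.5 CPM (others 15.8 to 16.7), and Mcm4, high in RhoA het 6 at 63.8 CPM (others 37.6 to 41.6).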

How the results depend on the processing

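Over all genes, 0 were called in RhoA het against control by edgeR; 2 were with the replicate block over numbers 5, 7 and 8, and 372 had an unadjusted p under 0.05. None of the 41 replication genes was called under any of the alternatives run (other scalings, no filter, DESeq2, limma, the block, the same 6 libraries without it, number 5 as a term, and leaving out libraries); at an unadjusted p under 0.05 between 0 and 4 of them passed, and the block changed no other call. Their median log2 fold change was -0.05 and ranged from -0.29 to 0.14 when 1 library was left out (without RhoA het 5 and without control 5). The median log2 ratio of the libraries numbered 5 to the others was 0.76; it was 0.92 in deposited TPM and 0.87 from total counts, scalings that shift all genes by 0.18 and 0.12, 0.67 without control 2 and RhoA het 6, 0.64 with a pseudocount of 1 CPM, and 0.63 to 0.91 when 1 library was left out. The count at least 2-fold above all others was 3; it was 10 at 1.5-fold, 23 at any excess, and 3 to 6 when 1 library was left out, with 6 when RhoA het 5 was left out and control 5 alone stood for number 5. Depth limits Mcm10, Fen1, E2f1, Orc1, Gins3 and Pole2, whose libraries held as few as 3 to 13 fragments.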
